A study of Mus musculus with 20 samples.

Results

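Atf3, which encodes the transcription factor ATF3, was followed through 20 RNA libraries of mouse bone marrow-derived macrophages. It was taken as the row of the deposited count table whose Ensembl mouse gene carries the symbol Atf3, which is 1 gene of 22165, and it passed the filter on low counts with 10663 genes in all. Bone marrow of wild-type C57BL/6 mice had been cultured for 7 days with macrophage colony-stimulating factor. The DI groups received dimethyl itaconate, an ester made from the mitochondrial metabolite itaconate that enters cells, at 250 µM for 12 h before a stimulus of lipopolysaccharide and interferon gamma (LPS and IFNg), and the Ctrl groups received the same stimulus without it. Both arms were sampled at 0, 1, 2, 4 and 6 h of stimulation with 2 libraries per group, so 0 h marks cells without LPS and IFNg. The labels name neither a vehicle nor the animals behind each library, so the spread between replicates may be technical.

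ATF3 is a basic leucine zipper protein of the ATF and CREB family that cells make quickly under many stresses. As a homodimer it is known as a repressor of transcription, and it also forms dimers with JUN, JDP2 and CHOP. The integrated stress response, in which kinases phosphorylate the translation factor eIF2alpha and thereby raise translation of ATF4, is one known route to Atf3 transcription, and Toll-like receptor signalling is another. In mouse macrophages ATF3 is known to restrain Il6, Il12b and Ch25h after Toll-like receptor stimulation, and work on electrophilic itaconate derivatives has linked it to IkBz, the inhibitor family protein encoded by Nfkbiz. The comparisons therefore ask whether Atf3 transcripts differed with DI before the stimulus and how they responded to it.

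Atf3 lies on the minus strand of mouse chromosome 1, at chr1:191170296-191218039 in GRCm38, and the GENCODE M21 annotation gives it 3 transcripts. Atf3-201 and Atf3-203 are protein coding, have 4 exons each and end at the same 3′ position, while Atf3-203 starts at 191218039 and Atf3-201 at 191183340. The libraries read the 3′ ends of transcripts, so the counts do not separate these start sites. The 250 bases upstream of the RefSeq start, at chr1:191183334-191183583 on the minus strand of GRCm38.p6, are shown because they hold letters of the elements that ATF proteins bind. Capitals mark TTGCATCA, the composite element for C/EBP and ATF dimers, and ACGTCA, the reverse complement of the cyclic AMP response half-site TGACGT.

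Atf3 promoter: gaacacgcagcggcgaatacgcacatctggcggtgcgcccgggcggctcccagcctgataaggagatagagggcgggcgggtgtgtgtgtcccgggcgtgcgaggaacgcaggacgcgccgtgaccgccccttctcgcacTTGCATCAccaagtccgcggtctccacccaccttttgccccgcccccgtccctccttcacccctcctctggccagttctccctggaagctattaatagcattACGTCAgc

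The composite element began at base −110 from the start and the half-site at base −8. Both strands of all 32851 RefSeq promoter windows, which run from 250 bases before to 50 after a start, were searched for the same letters. TTGCATCA was found in 0.895% of them and TGACGT in 7.51%. A loose NF-kB pattern, GGG and CC with 5 bases of any kind between them, was found as 2 overlapping matches in the Atf3 window and in 50.8% of all windows. The antioxidant response pattern TGACNNNGC, the AP-1 pattern TGANTCA and the interferon pattern of GAAA repeated after any 2 bases were not in the Atf3 window. They were in 12.4%, 7.81% and 3.44% of all windows.

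Total counts were 3982073 to 6725447 in DI libraries and 3655977 to 8938983 in Ctrl libraries. Atf3 itself had 1833 to 4555 counts in DI libraries and 1424 to 7994 in Ctrl libraries, so counting error on its reads was small in each library, although no identifiers mark PCR copies. The DI libraries were less complex: 11143 to 12356 genes were at 0 in them against 9301 to 10859 in Ctrl libraries, and the estimated reads per molecule were 3.87 to 10.5 in DI and 1.80 to 3.37 in Ctrl. Dividing by this estimate leaves 248 to 747 Atf3 molecules in DI libraries and 436 to 3773 in Ctrl libraries. All 8 macrophage markers, Csf1r, Adgre1 and Itgam among them, had counts, with summed levels of 2620 to 4380 CPM (counts scaled to the library total) in DI and 3250 to 4760 CPM in Ctrl. Summed markers were 280 to 538 CPM in DI and 255 to 643 CPM in Ctrl for neutrophils, and at most 12.5 CPM in DI and 6.46 CPM in Ctrl for each of the T and NK cell, B cell and mast cell lists. Fcer1a, Tpsb2 and Cma1 had no count in any library. Ighm matched no row of the count table, so it was not measured. Cd3e, Trac and Ncr1 had either no count or no matching row. Fibroblast markers summed to 7.60 to 41.2 CPM in DI and 39.0 to 71.0 CPM in Ctrl, dendritic cell markers to 7.24 to 30.3 CPM in DI and 15.3 to 45.8 CPM in Ctrl, and erythroid and megakaryocyte markers to 181 to 450 CPM in DI and 118 to 278 CPM in Ctrl. The part of these differences in the Atf3 values was not tested, and fewer cells of a type cannot be told apart from less RNA per cell.

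Atf3 was expressed in all 20 libraries, unstimulated ones included. The levels that follow are CPM after scaling by trimmed means of M values (TMM). In DI cells at 0 h Atf3 measured 324 and 525 CPM, against 315 and 206 CPM in Ctrl cells. At 1 h it measured 526 and 590 CPM in DI cells, against 731 and 668 CPM in Ctrl cells. At 2 h the values were 849 and 641 CPM in DI cells and 942 and 1054 CPM in Ctrl cells. Up to here the arms did not overlap: DI libraries were on the upper side at 0 h and on the lower side at 1 and 2 h. At 4 h Atf3 stood at 681 and 713 CPM in DI cells and at 596 and 535 CPM in Ctrl cells. At 6 h it stood at 573 and 688 CPM in DI cells and at 510 and 618 CPM in Ctrl cells. DI libraries were again on the upper side at 4 h, without overlap, and the arms overlapped at 6 h. At 0 h the nearest libraries of the 2 arms were close, at 324 and 315 CPM. With 2 libraries per group a lack of overlap can easily arise by chance, and the share of all genes that showed it was not counted.

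**Figure D1:**
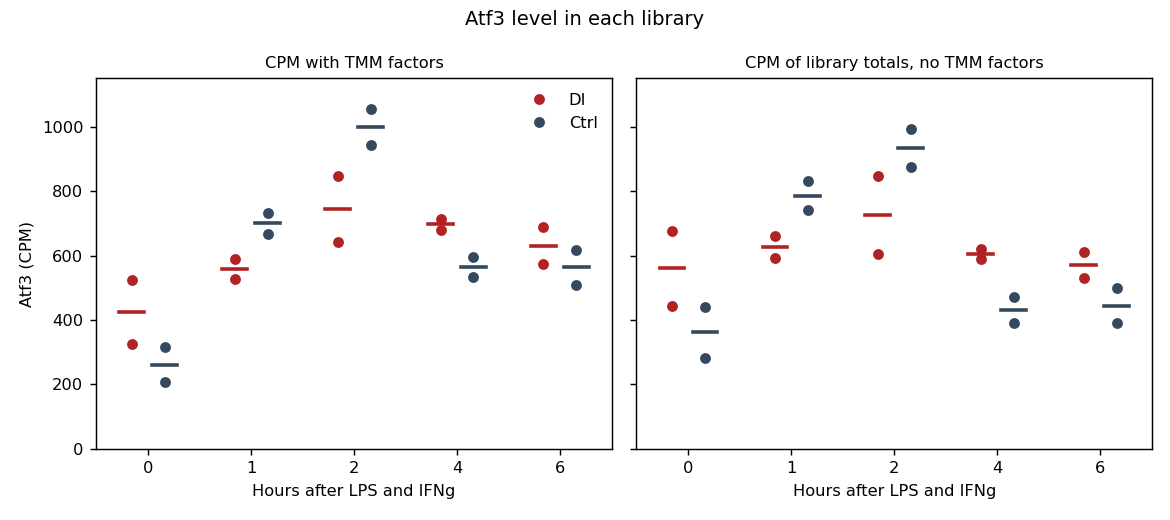
Atf3 level in each library against hours of LPS and IFNg, in CPM with TMM factors (left) and in CPM of the library totals without them (right). Each point is 1 library, DI in red to the left of Ctrl in dark blue, and bars are the means of 2 libraries. On the TMM scale Ctrl libraries run between 206 and 1054 CPM and DI libraries between 324 and 849 CPM.

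The group means, given with the SD of 2 libraries, put the highest level in Ctrl cells at 2 h (998 ± 79.4 CPM) and the lowest in Ctrl cells at 0 h (260 ± 77.0 CPM). Next below the peak came DI at 2 h (745 ± 147 CPM), Ctrl at 1 h (700 ± 44.8 CPM), DI at 4 h (697 ± 22.4 CPM) and DI at 6 h (631 ± 81.3 CPM). They were followed by Ctrl at 4 h (565 ± 43.6 CPM), Ctrl at 6 h (564 ± 76.6 CPM), DI at 1 h (558 ± 45.6 CPM) and DI at 0 h (424 ± 142 CPM). Neighbours in this order were separated beyond their libraries at 3 places, which were below Ctrl at 2 h, below DI at 1 h and below DI at 0 h. The 6 groups between the peak and DI at 1 h each overlapped the next one down. The DI groups spanned a narrower range of means, 424 to 745 CPM, than the Ctrl groups, 260 to 998 CPM.

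No DI against Ctrl difference in Atf3 passed the test at any time. The log2 fold change was 0.71 ± 0.27 (SE) at 0 h, with a 95% confidence interval of 0.14 to 1.27 and an adjusted p of 0.197 from edgeR's quasi-likelihood test over all genes. At 1 h it was −0.33 ± 0.27 (interval −0.89 to 0.23, adjusted p = 0.643), and at 2 h −0.42 ± 0.27 (interval −0.98 to 0.14, adjusted p = 0.411). At 4 h it was 0.30 ± 0.27 (interval −0.26 to 0.86, adjusted p = 0.56), and at 6 h 0.16 ± 0.27 (interval −0.40 to 0.72, adjusted p = 0.759). Of all genes tested, 3.60%, 4.89%, 6.24%, 9.43% and 14.2% were called at 0, 1, 2, 4 and 6 h. The intervals still allow, on the log2 scale, a difference of up to 1.27 at 0 h and of up to −0.98 at 2 h. The value at 0 h moved most with single libraries: it was 0.31 without replicate 2 of DI at 0 h, 0.42 without replicate 2 of Ctrl at 0 h and 1.04 without replicate 1 of Ctrl at 0 h, and it passed in none of these fits. At 2 h it was −0.24 without replicate 2 and −0.64 without replicate 1 of DI at 2 h.

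Atf3 rose in Ctrl cells after the stimulus. Relative to 0 h, Atf3 rose 2.69-fold at 1 h (log2 fold change 1.43 ± 0.28, adjusted p = 0.00127), when 4.07% of all genes were called, and 3.84-fold at 2 h (1.94 ± 0.28, adjusted p = 1.31e-05), when 12.2% were called. At 4 h it was 2.17-fold above 0 h (1.12 ± 0.27, adjusted p = 0.00334) and at 6 h 2.17-fold (1.11 ± 0.27, adjusted p = 0.00326), in contrasts where 24.3% and 26.5% of all genes were called. In both arms the contrasts of 2 h and of 4 h with 0 h were added after the levels had been seen. The steps between neighbouring times did not pass after the first hour: 0.51 ± 0.27 at 2 h against 1 h (adjusted p = 0.467), −0.82 ± 0.27 at 4 h against 2 h (adjusted p = 0.0821) and −0.0042 ± 0.27 at 6 h against 4 h (adjusted p = 1). In these 3 contrasts 3.68%, 5.51% and 0.525% of all genes were called. The step from 2 h down to 4 h passed under 6 alternatives, with adjusted p between 0.00344 and 0.0414.

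Both the scaling and 1 library bear on the Ctrl response. Without replicate 2 of Ctrl at 0 h, the lower of the 2 unstimulated Ctrl libraries, the rise was 1.15 at 1 h (adjusted p = 0.103), 0.84 at 4 h (adjusted p = 0.109) and 0.83 at 6 h (adjusted p = 0.107), none of them called, and 1.66 at 2 h, still called. On library totals with no TMM factors, Atf3 measured 440 and 283 CPM in Ctrl cells at 0 h, 831 and 742 CPM at 1 h, 873 and 993 CPM at 2 h, 472 and 392 CPM at 4 h, and 390 and 499 CPM at 6 h. The rise over 0 h was then 1.12 at 1 h (adjusted p = 0.0156) and 1.37 at 2 h (adjusted p = 0.00092), while 4 h gave 0.26 (adjusted p = 0.438) and 6 h gave 0.30 (adjusted p = 0.373). That scale moves the median log2 fold change of all genes to −1.01 at 4 h and −0.99 at 6 h against 0 h in Ctrl cells. Between these 2 scales, the rise at 1 and 2 h passed on both, and that at 4 and 6 h passed with TMM factors and not on library totals. With size factors of DESeq2 it also passed at 4 h (1.12, adjusted p = 0.00313) and 6 h (1.13, adjusted p = 0.00266).

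In DI cells no change of Atf3 after the stimulus passed the test. Against 0 h the log2 fold change was 0.39 ± 0.27 at 1 h (adjusted p = 0.59), 0.81 ± 0.27 at 2 h (adjusted p = 0.0569), 0.71 ± 0.27 at 4 h (adjusted p = 0.0696) and 0.57 ± 0.27 at 6 h (adjusted p = 0.148), and 3.59%, 11.0%, 18.7% and 20.2% of all genes were called. Between neighbouring times it was 0.42 ± 0.27 at 2 h against 1 h (adjusted p = 0.431), −0.10 ± 0.27 at 4 h against 2 h (adjusted p = 0.887) and −0.14 ± 0.27 at 6 h against 4 h (adjusted p = 0.85), where 4.38%, 5.79% and 1.00% of all genes were called. With TMM factors, stimulated DI libraries lay above the unstimulated ones at each of these times, although by only about 1 CPM at 1 h, where 526 CPM stood beside 525 CPM. On library totals the unstimulated DI libraries, at 444 and 677 CPM, overlapped those at 1, 2, 4 and 6 h. The values at 2 and 4 h lay near the threshold and passed with limma-voom (adjusted p = 0.0338 and 0.0428) and with the DESeq2 Wald test (adjusted p = 0.0211 and 0.035), but not with quality weights in limma-voom (adjusted p = 0.168 at both times). Without replicate 2 of DI at 0 h, the higher unstimulated library, they were 1.20 and 1.10 and passed, as did 0.96 at 6 h. Without replicate 1, the lower one, they were 0.50 at 2 h (adjusted p = 0.351), 0.41 at 4 h (adjusted p = 0.42) and 0.26 at 6 h (adjusted p = 0.613), none of them called. On library totals without TMM factors the log2 fold changes were 0.37 at 2 h, 0.11 at 4 h and 0.02 at 6 h.

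The difference between the responses was tested directly, as the change from 0 h in DI minus the change from 0 h in Ctrl. For Atf3 it was −1.03 ± 0.38 at 1 h (95% confidence interval −1.82 to −0.24, adjusted p = 0.75) and −1.13 ± 0.38 at 2 h (interval −1.92 to −0.34, adjusted p = 0.339). At 4 h it was −0.40 ± 0.38 (interval −1.20 to 0.39, adjusted p = 0.805), and at 6 h −0.54 ± 0.38 (interval −1.34 to 0.25, adjusted p = 0.673). None passed, in contrasts where 0.253%, 0.356%, 0.760% and 1.55% of all genes were called. The point estimates put the early response in DI cells below that in Ctrl cells, and the intervals at 1 and 2 h, which are not adjusted for the number of genes, lie below 0. Without replicate 2 of DI at 0 h the estimates were −0.64 at 1 h and −0.74 at 2 h, and without replicate 1 of DI at 0 h they were −1.34 and −1.43. From 1 h to 6 h the change in DI minus that in Ctrl was 0.49 ± 0.38 (adjusted p = 0.608), against 2.10% of all genes called.

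**Figure D2:**
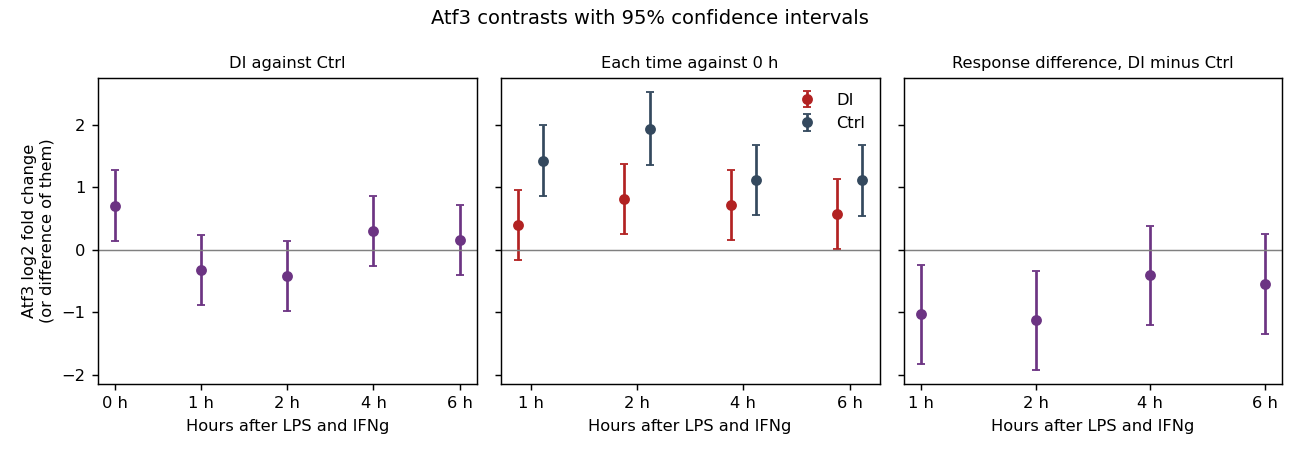
Atf3 log2 fold changes from edgeR for DI against Ctrl at each time (left) and for each stimulated time against 0 h within DI and within Ctrl (middle), and the DI response minus the Ctrl response (right). Points are estimates and bars are 95% confidence intervals not adjusted for the number of genes. The 4 Ctrl responses lie between 1.11 and 1.94 and the 4 DI responses between 0.39 and 0.81.

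Likeness of other genes to Atf3 was measured as Pearson's r over the 10 group means of log2 CPM, among 2173 genes with a highest group mean of at least 20 CPM and a range of at least 2 on the log2 scale. The median r was 0.135, and 4 genes exceeded 0.9. The 8 highest were Maff (0.924), D16Ertd472e (0.922), Dusp5 (0.910), Ppp1r15a (0.902), Cxcl2 (0.9), Tnfaip3 (0.887), Phlda1 (0.885) and Zc3h12c (0.878). The group means share libraries and scaling between genes, so r describes likeness only. Maff encodes a small Maf protein, Dusp5 a phosphatase of nuclear ERK, Tnfaip3 the NF-kB feedback regulator A20, and Cxcl2 a neutrophil-attracting chemokine. Ppp1r15a encodes GADD34, which directs protein phosphatase 1 to eIF2alpha. The limit on range admitted only genes that varied more than Atf3 itself, whose range was 1.97, and the 8 genes ranged from 3.64 for Zc3h12c to 9.43 for Cxcl2 on the log2 scale. Leaving out the 3 DI libraries in which the most genes were at 0, replicate 2 at each of 2, 4 and 6 h, put Maff at rank 2 and the others between rank 4 and rank 23.

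These genes were chosen for group means that ran like those of Atf3, so their values in DI and Ctrl cells are a description with no test. Ppp1r15a measured 31.8 and 43.3 CPM in DI cells at 0 h, against 13.8 and 10.7 CPM in Ctrl cells, a log2 fold change of 1.61 ± 0.30. At 1 h it measured 113 and 88.2 CPM in DI cells, against 589 and 726 CPM in Ctrl cells (−2.71 ± 0.30). For Tnfaip3 the log2 fold change of DI against Ctrl was 1.61 ± 0.35 at 0 h and −1.82 ± 0.34 at 1 h. Dusp5 measured 55.3 and 129 CPM in DI cells and 24.3 and 21.5 CPM in Ctrl cells at 0 h (2.01 ± 0.38). For Maff the log2 fold change was 1.47 ± 0.38 at 0 h, and for D16Ertd472e it was 2.69 ± 0.50 at 0 h and −1.59 ± 0.43 at 2 h. Cxcl2 at 6 h measured 5171 and 8709 CPM in DI cells, against 795 and 848 CPM in Ctrl cells (3.08 ± 0.31). For Phlda1 and Zc3h12c the log2 fold changes at 6 h were 1.97 ± 0.28 and 1.01 ± 0.31.

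**Figure D3:**
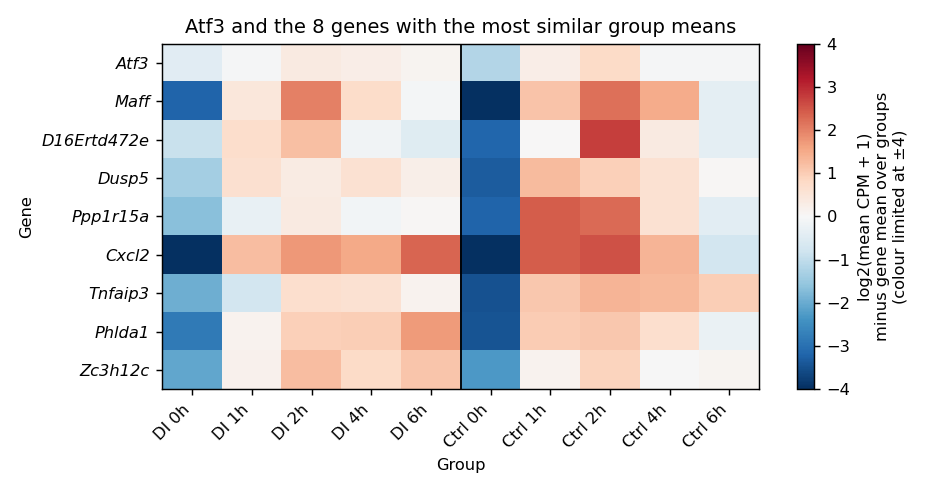
Atf3 and the 8 genes with the highest Pearson's r to it, as log2(mean CPM + 1) of each group minus the gene's mean over the 10 groups, with DI groups left of the line and Ctrl groups right of it. Blue is below and red above the gene's own mean, with colours limited at ±4. Atf3 spans 1.97 on the log2 CPM scale, below the range of 2 that the search required of the other genes.

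Upstream of Atf3 in the integrated stress response stand the eIF2alpha kinases and phosphatase cofactors. Of 8 such genes tested, 1 was higher in DI at 0 h (Ppp1r15a), and 1, 3, 2 and 3 were lower in DI at 1, 2, 4 and 6 h, with none higher at those times. Ppp1r15a was also the gene called at 1 h and 1 of those at 2 h. It is counted again below among the ATF4 and integrated stress response targets. The list joins kinases with cofactors of the opposing phosphatase, so its median has no single direction in the pathway. Over all genes tested, 1.43%, 1.86%, 2.27%, 3.43% and 5.24% were called higher in DI at 0, 1, 2, 4 and 6 h and 2.17%, 3.03%, 3.97%, 6.00% and 8.95% lower. Ppp1r15b, which encodes the constitutive eIF2alpha phosphatase cofactor, was lower in DI at 2 h (−0.995 ± 0.255, adjusted p = 0.0176), 4 h (−1.16 ± 0.26, adjusted p = 0.00377) and 6 h (−1.66 ± 0.26, adjusted p = 6.22e-05). Nck1, an adaptor that binds the eIF2alpha phosphatase complex, was lower at the same 3 times, by −1.64 ± 0.31, −2.10 ± 0.32 and −2.11 ± 0.32. Eif2ak2, the kinase PKR, was lower in DI at 6 h (−1.32 ± 0.28, adjusted p = 0.00212). The median log2 fold change of the 8 genes was −0.18, −0.10, −0.80, −0.44 and −0.51 over the 5 times, against −0.05, 0.0034, −0.03, −0.06 and −0.03 for all genes.

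Atf4 transcripts were called higher in DI at 1 and 2 h, and those of Atf3 were not called in either direction. Atf4, whose protein drives the integrated stress response programme, measured 500 and 1149 CPM in DI cells at 1 h, against 243 and 359 CPM in Ctrl cells (1.45 ± 0.33, adjusted p = 0.00694). At 2 h it measured 394 and 585 CPM in DI cells and 234 and 209 CPM in Ctrl cells (1.14 ± 0.32, adjusted p = 0.0344). Its r with Atf3 over the 10 groups was −0.02. ATF4 is regulated mainly by translation, which transcript counts do not measure.

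Of 34 ATF4 and integrated stress response targets, 26 passed the filter on low counts. Of these, 3, 2, 5, 6 and 6 were higher in DI at 0, 1, 2, 4 and 6 h, and 0, 2, 2, 2 and 2 were lower. Their median log2 fold change was 0.34, 0.35, 0.75, 0.47 and 0.58, against all-gene medians between −0.06 and 0.0034. Leaving out the 3 least complex DI libraries reduced the number higher in DI at 4 h to 3, and fitting only the groups of each contrast gave 1 at 0 h and 3 at 6 h. Gdf15, a stress-induced cytokine, was higher in DI at all 5 times, from 1.10 ± 0.32 at 1 h to 4.26 ± 0.40 at 6 h. Slc7a11, the cystine transporter subunit that is also on the NRF2 list, was higher at all 5 times, with 66.1 and 69.9 CPM in DI cells and 2.24 and 2.02 CPM in Ctrl cells at 0 h (4.98 ± 0.35, adjusted p = 1.32e-09). Trib3, a pseudokinase induced by ATF4 and CHOP, was higher in DI at 2 h (2.22 ± 0.41, adjusted p = 0.00108), with 47.9 and 62.7 CPM in DI cells and 10.8 and 12.8 CPM in Ctrl cells. It was higher again at 4 h (3.44 ± 0.56), at lower levels of 12.4 and 6.89 CPM in DI cells. The Ctrl libraries at 4 h held only 3 and 4 Trib3 counts (0.83 and 0.91 CPM). Ddit3, which encodes CHOP, was higher at 4 h (1.19 ± 0.29, adjusted p = 0.00962), with 78.1 and 96.8 CPM in DI cells and 41.1 and 35.3 CPM in Ctrl cells. Nupr1, another stress-induced cofactor, was lower in DI at 1, 2, 4 and 6 h, by −3.57 ± 0.45 at 6 h. Asns, the asparagine synthetase that ATF4 induces, did not pass at any time, with values from 0.07 ± 0.44 at 0 h to 0.57 ± 0.46 at 6 h. Chac1, a glutathione-degrading enzyme, did not pass either and had no count in both DI libraries at 4 h.

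The relatives of Atf3 were counted beside the shares given above for all genes. Of 18 other ATF and CREB family members tested, 0, 2, 1, 1 and 2 were higher in DI and 1, 0, 0, 2 and 3 lower at 0, 1, 2, 4 and 6 h, with medians of 0.0074, −0.06, −8.53e-06, −0.30 and −0.26. Jdp2, a repressor that dimerises with ATF3 and JUN, had 4.07 and 1.84 CPM in DI cells and 9.36 and 13.7 CPM in Ctrl cells at 0 h (−2.01 ± 0.46, adjusted p = 0.00987). At 4 h it had 175 and 303 CPM in DI cells and 101 and 94.2 CPM in Ctrl cells (1.29 ± 0.39, adjusted p = 0.0338). Atf1, a CREB relative, was higher in DI at 1 h (2.27 ± 0.43, adjusted p = 0.00146). Batf, an AP-1 family protein that lacks an activation domain, was lower in DI at 4 h (−2.76 ± 0.50, adjusted p = 0.000613) and 6 h (−3.30 ± 0.51, adjusted p = 6.05e-05). Crebl2 was lower at the same 2 times, and Atf5 was higher and Atf6 lower at 6 h.

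The dimer partners of ATF3 among AP-1 proteins and the CHOP group changed in both directions. Of 15 listed, 14 were tested, and 4, 1, 3, 6 and 4 were higher in DI and 1, 3, 1, 4 and 4 lower at 0, 1, 2, 4 and 6 h, with medians of 0.08, 0.14, 0.19, −0.35 and 0.21. Jun, a partner with which ATF3 can activate transcription, had 82.7 and 82.7 CPM in DI cells and 230 and 234 CPM in Ctrl cells at 4 h (−1.49 ± 0.31, adjusted p = 0.00216). It was also lower in DI at 6 h (−1.12 ± 0.30, adjusted p = 0.0134) and did not pass at 0, 1 or 2 h. Junb was lower at 1, 4 and 6 h, and Fos was lower at 1 h (−2.27 ± 0.47) and higher at 4 h (2.41 ± 0.49) and 6 h (1.88 ± 0.48). Fosl1 was higher in DI at 0, 2, 4 and 6 h, by 4.71 ± 0.86 at 0 h, where it had 9.72 and 10.6 CPM in DI cells. Ctrl libraries had only 2 and 6 Fosl1 counts at 0 h and at most 8 at 2, 4 and 6 h, so the size of these changes is uncertain. Mafg, a small Maf partner of NRF2, was higher at all 5 times, up to 2.53 ± 0.28 at 4 h. Cebpb was higher at 0, 2, 4 and 6 h, whereas Maf was lower at all 5 times. Fitted on the libraries of each contrast alone, 1 partner in place of 4 was called higher at 0 h and 1 in place of 4 at 6 h.

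Most of the genes reported as ATF3 targets in mouse macrophages were lower in DI at 1 and 2 h. Any part of Atf3 in this was not tested. All 9 listed genes were tested, and 4, 9, 6, 4 and 5 were lower in DI at 0, 1, 2, 4 and 6 h, while 2 were higher at 6 h. The median log2 fold change was −3.60, −2.71, −2.26 and −1.62 at 1, 2, 4 and 6 h. At 0 h it was −4.52, but 5 of the 9 had no count in either DI library there. Setting these at a floor of 3 counts per library gave −1.14. That floor takes each read as 1 molecule, whereas the DI libraries at 0 h had an estimated 3.87 and 6.1 reads per molecule. Values set at it are therefore not lower limits on the change. Il6 had 1.41 and 2.51 CPM in DI cells at 1 h, against 32.7 and 28.2 CPM in Ctrl cells (−3.90 ± 0.45, adjusted p = 3.2e-06). At 6 h Il6 had 18.1 and 38.8 CPM in DI cells, against 292 and 265 CPM in Ctrl cells (−3.30 ± 0.39, adjusted p = 1.92e-06). Il12b, the p40 subunit of interleukins 12 and 23, had 0.98 and 2.12 CPM in DI cells at 4 h and 1460 and 1287 CPM in Ctrl cells (−9.79 ± 0.59, adjusted p = 3.55e-10). The DI libraries held only 4 and 8 Il12b counts at 4 h and 7 and 18 Il6 counts at 1 h. The sizes of these 2 changes are therefore uncertain. Ch25h, which makes the oxysterol 25-hydroxycholesterol, had 5.14 and 7.36 CPM in DI cells at 6 h and 554 and 277 CPM in Ctrl cells (−6.07 ± 0.54, adjusted p = 4.43e-08). At 0 h it was at 0 in DI cells and at 2.72 and 3.23 CPM in Ctrl cells, 6.79-fold lower with DI set at that floor. Il1b was lower in DI at all 5 times, by −4.99 ± 0.39 at 1 h and −2.38 ± 0.33 at 6 h. At 0 h it had no count in DI cells and was 4.80-fold lower with DI set at the same floor. Cxcl1, a neutrophil-attracting chemokine, was lower in DI at 1 h (−2.18 ± 0.39) and 2 h (−1.53 ± 0.38) and higher at 6 h (3.64 ± 0.42, adjusted p = 1.19e-06). At 0 h the count of genes lower in DI was 6 without the 3 least complex DI libraries, and it was 1 on counts collapsed to molecules and 0 when only the groups of that contrast were fitted.

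Nfkbiz was lower in DI at all 5 times. It measured 4.60 and 4.03 CPM in DI cells at 0 h, against 35.4 and 35.6 CPM in Ctrl cells (−3.04 ± 0.30, adjusted p = 2.51e-07). At 2 h it measured 885 and 758 CPM in DI cells and 1659 and 1694 CPM in Ctrl cells (−1.03 ± 0.26, adjusted p = 0.0141), and at 6 h 104 and 165 CPM in DI cells and 839 and 703 CPM in Ctrl cells (−2.52 ± 0.27, adjusted p = 3.87e-07). Its r with Atf3 over the 10 groups was 0.701. A link between the 2 genes was not tested, and ATF3 protein was not measured. The IkBz list has 9 genes and includes Nfkbiz itself. Of these 7 were tested, and 2, 4, 6, 6 and 6 of them were lower in DI at 0, 1, 2, 4 and 6 h, with none higher. The median was −1.93, −1.64, −2.84 and −3.30 at 1, 2, 4 and 6 h, and the value at 1 h is that of Nfkbiz. At 0 h it was −3.04, again that of Nfkbiz. It became −0.32 when the 3 genes with no count in DI cells were set at the floor of 3 counts per library. Where Ctrl was also that low, the change was set at 0. Ebi3, a subunit of interleukins 27 and 35, was lower at 2, 4 and 6 h, by −3.20 ± 0.29 at 6 h. Edn1 was lower at 1, 2, 4 and 6 h and Saa3 at 2, 4 and 6 h. Both lists share Il6 and Il12b, and they were chosen with earlier results of these data known.

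NRF2 targets, the antioxidant genes known to respond to electrophiles, were higher in DI throughout. Of 22 tested, 21, 18, 20, 19 and 22 were higher in DI at 0, 1, 2, 4 and 6 h and none lower, with medians of 2.54, 2.15, 2.05, 2.15 and 2.99. Hmox1, which encodes heme oxygenase 1, had 232 and 193 CPM in DI cells and 18.9 and 27.9 CPM in Ctrl cells at 0 h (3.18 ± 0.33, adjusted p = 4.89e-07). Gclm, a subunit of the rate-limiting enzyme of glutathione synthesis, had 1544 and 1725 CPM in DI cells and 132 and 142 CPM in Ctrl cells at 0 h (3.58 ± 0.31, adjusted p = 5.39e-08). Over the 10 groups r with Atf3 was 0.0615 for Hmox1 and 0.152 for Gclm. Gclc, Gsr and Srxn1 were higher at all 5 times. At 0 h the count was 13 when only the groups of that contrast were fitted.

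Immediate-early genes, the class to which Atf3 is often assigned, were mostly lower in DI at 1 h. Of 18 listed, 16 were tested, and 1, 9, 2, 6 and 7 were lower and 2, 0, 1, 2 and 2 higher in DI at 0, 1, 2, 4 and 6 h, with medians of −0.16, −1.41, 0.06, −0.61 and −0.78. Egr1, a zinc finger factor, was lower in DI at 1 h (−2.79 ± 0.34, adjusted p = 4.79e-06) and 4 h (−1.45 ± 0.39). Ier2 was lower at 1, 2, 4 and 6 h, by −4.03 ± 0.49 at 1 h, and Dusp2, a nuclear phosphatase of MAP kinases, at the same times, by −4.78 ± 0.57 at 1 h. Dusp1, another such phosphatase, was higher in DI at 0 h (1.55 ± 0.30) and 2 h (1.20 ± 0.29) and lower at 6 h (−0.96 ± 0.29). Egr2 was higher at 0, 4 and 6 h and lower at 1 h. Ctrl libraries held only 8 and 18 Egr2 counts at 4 h and 0 and 2 at 6 h, so the size of these late changes is uncertain. Btg2 was lower at 0, 1, 4 and 6 h. On counts collapsed to molecules 3 in place of 1 were lower at 0 h and 5 in place of 2 at 2 h. Atf3, at −0.33 ± 0.27, lay above the median of the 16 at 1 h, a difference that was not tested.

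**Figure D4:**
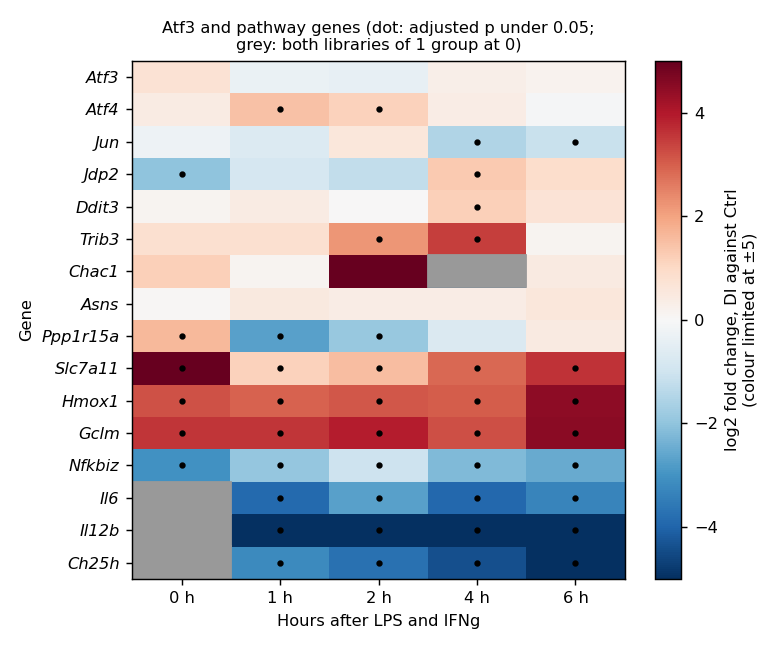
Log2 fold change of DI against Ctrl for Atf3 and 15 genes of the pathways around it at 5 times, with colours limited at ±5. A dot marks an adjusted p under 0.05, and grey marks a gene with no count in either library of 1 group. Atf3 carries no dot at any time, while Slc7a11, Hmox1 and Gclm are higher in DI and Nfkbiz lower at all 5.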

How the data were processed

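Messenger RNA was primed with barcoded oligo-dT and read at the 3′ end, per the labels' protocols, which name no molecular identifiers, and the pooled libraries were amplified by PCR. STAR, HTSeq and DESeq2, with the mm10 build, are listed in the submitters' processing notes, and their versions and options are not given in the sources used here. Raw counts for each Ensembl gene were deposited by the authors, and 21745 of 22165 genes matched a symbol in GENCODE M21.

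Genes were filtered with filterByExpr by group and scaled by TMM, and 1 quasi-likelihood model (edgeR 4.0.16 in R 4.3.3, glmQLFit, robust) with 10 group coefficients was fitted to the 20 libraries together. Calls were made at an adjusted p under 0.05 (Benjamini-Hochberg over 10663 genes per contrast). Intervals cover the spread between libraries, not PCR copies. Alternatives used limma 3.58.1, DESeq2 1.42.0, other scalings and filters, estimated molecules, a replicate block and fewer libraries. Genes named are the 8 most like Atf3, a panel of 14, and up to 3 members per list and time with the smallest p, of which 1 gene is not reported here. Atf3, the lists and the panel were chosen with earlier results of these data known. The model was tested on simulated data first.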

Additional observations from a re-analysis of the deposited data

How the results depend on the processing

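Each Atf3 contrast was recomputed under 32 alternatives, 20 of which leave out 1 library. The 5 DI against Ctrl values and the 5 differences between responses kept their sign and stayed uncalled under all of them. Leaving out single libraries gave 0.308 to 1.04 at 0 h, −0.419 to −0.248 at 1 h, −0.64 to −0.24 at 2 h, 0.22 to 0.376 at 4 h and 0.0199 to 0.301 at 6 h, and response differences of −1.37 to −0.639, −1.47 to −0.737, −0.74 to −0.0109 and −0.879 to −0.151 at 1, 2, 4 and 6 h, and 0.351 to 0.633 for 6 h against 1 h. In Ctrl it gave 1.15 to 1.76 at 1 h, 1.66 to 2.27 at 2 h, 0.837 to 1.45 at 4 h and 0.833 to 1.45 at 6 h against 0 h, −0.903 to −0.738 at 4 h against 2 h and −0.149 to 0.128 at 6 h against 4 h. In DI it gave 0.0879 to 0.784 at 1 h, 0.503 to 1.20 at 2 h, 0.406 to 1.10 at 4 h and 0.262 to 0.957 at 6 h against 0 h, and −0.286 to 0.104 at 4 h against 2 h.

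The fall in Ctrl from 2 h to 4 h passed with TMM factors from genes of at least 32 CPM (−0.963), quality weights in limma-voom (−0.823), the DESeq2 Wald test (−0.84), the 2 groups alone (−0.885), estimated molecules (−0.83) and library totals without TMM factors (−1.11). The Ctrl change at 6 h against 4 h turned positive, with size factors of DESeq2 (0.0135), those TMM factors (0.0239), the Wald test (0.0136), the 2 groups alone (0.0194), molecules (0.00263), no TMM factors (0.0407), and without replicate 1 of Ctrl at 4 h (0.0764), of Ctrl at 6 h (0.128) or of DI at 2 h (0.00692). The DI change at 4 h against 2 h was 0.104 without replicate 1 of DI at 2 h. In DI, 2 h against 0 h passed with limma-voom (0.831) and the Wald test (0.815), as did 4 h against 0 h (0.747 and 0.719). The last also passed without replicate 1 of DI at 2 h (adjusted p = 0.0481). Without TMM factors, a setting added after the data were seen, the Ctrl rise lost its call at 4 h (0.255) and 6 h (0.296), where the change of scaling moves all genes. The other causes were not tested.

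With the replicate number as a block, the DI against Ctrl values were 0.698, −0.328, −0.42, 0.30 and 0.162, and no Atf3 call changed. Deviations of same-numbered libraries from their group means correlated at −0.0936 to 0.0527 between DI and Ctrl, so the numbers were not taken as pairs. The number of genes called in DI against Ctrl was 384, 521, 665, 1006 and 1513, against 186 to 426, 252 to 588, 276 to 789, 421 to 1132 and 750 to 1620 with 1 library left out. Over the other settings it was 91 to 702, 355 to 831, 342 to 1063, 802 to 1405 and 1158 to 1923. With 2 libraries per group the interval on each Atf3 contrast is wide, so values that missed the threshold do not show that Atf3 was the same in both arms.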
